A study of Homo sapiens with 4 samples.

Results

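Long intergenic non-coding RNAs that lie next to protein-coding genes were measured in HUH7 cells, an established hepatocellular carcinoma line. They were genes with a symbol of LINC and 5 digits whose body lay 10 kb or less from, or overlapped, the body of a protein-coding gene on either strand, and 7 LINC genes that the selection names were left out. The selection held 818 transcripts of 411 genes, of 19835 transcripts in the table, and used position only, not levels. A further 2544 LINC transcripts of 1458 genes lay farther from coding genes and are given for comparison. Of the 411 genes, 231 had 1 transcript in the table and 180 had several, at most 17. Gene bodies overlapped a coding gene for 117 genes with 275 transcripts.

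The 4 libraries formed 1 group, replicates 1 to 4, of untreated HUH7 cells in standard medium with serum. There was therefore no treated or control arm, and levels were set against 5 FPKM (fragments corrected for the length of the transcript and for library depth), the cut-off used to choose lncRNAs for a knockdown screen. The labels name the molecule as polyA RNA, whereas the protocol gives strand-specific libraries after ribosomal RNA depletion with Ribo-Zero. The labels do not state whether the replicates are separate cultures. Hence p-values reflect the spread among these 4 libraries alone, and that spread may be technical. The depths estimated from the steps of low FPKM values were 4500000 to 5060000 fragments on non-coding transcripts. HULC, a lncRNA known from liver cancer, stood at 693 ± 64.8 FPKM and H19, a fetal liver lncRNA, at 5.93 ± 2.38 FPKM (SD, n = 4, as everywhere below).

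LINC symbols are given to long non-coding RNA genes that have no better established name, and most of their products have no known function. A lncRNA gene can share a promoter region with a coding gene and be read in the opposite direction from it, it can lie in or beside the coding gene on the same strand, or the transcription units can face each other. Many lncRNA exons derive from transposable elements, of which Alu, a primate short interspersed element, is the most numerous in the human genome. Promoters of broadly used genes often lie in CpG islands, stretches that keep a high content of the dinucleotide CG.

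Sequence is shown first for LINC01588, the most abundant transcript in which no repeated sequence was found. The stretch is in the sense of the transcript and lies in an exon at chr14:50394402-50394485 (minus strand) on GRCh37. Capitals mark the 24 bases (24-mer) of the transcript with the most copies in the genome, which were 5.
LINC01588: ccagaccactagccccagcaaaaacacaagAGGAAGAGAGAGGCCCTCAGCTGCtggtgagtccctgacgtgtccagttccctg

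LINC02449 was the most abundant. The gene starts 7797 bases from FAM90A1 and runs in the opposite direction. For its transcript ENST00000399866 (517 nt, 2 exons) the 4 libraries gave 1050.0, 1231, 1302 and 1069.9 FPKM, a mean of 1163 ± 123. On the log2(FPKM + 1) scale, which understates differences of low transcripts, it lay 7.59 ± 0.08 (SE) above 5 FPKM (limma, Benjamini-Hochberg adjusted p = 4.87e-12). Repeated sequence, the share of a transcript's 24-mers with at least 10 genome copies, was 42.3%. The other transcripts of LINC02449 stood at 2.12 ± 1.27 and 0.133 ± 0.265 FPKM, so that 99.8% of the gene's FPKM lay in one transcript.

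The gene body of LINC02395 overlaps FAIM2, which encodes an inhibitor of Fas-driven apoptosis, on the opposite strand. Its transcript ENST00000549734, which itself lies outside FAIM2, had 757, 797, 779 and 605 FPKM, a mean of 735 ± 87.7. Its replicate 4 lay below the other libraries. Of its 4 other transcripts, 1 had 13.2 ± 2.02 FPKM and 3 were listed at 0. LINC01840 starts 4867 bases from EPHB3, an ephrin receptor gene, and had 562, 763, 618 and 645 FPKM. Replicate 2 was highest there, as in 55.5% of all transcripts of the table above 20 FPKM before scaling of the libraries. LINC01513 downstream of ROPN1L had 484 ± 45.1 FPKM, LINC02861 (ENST00000576810) downstream of ADCY9, an adenylyl cyclase gene, 402 ± 39.3 FPKM with 16.5% repeated sequence, and LINC02142 upstream of ADCY2, another gene of that family, 382 ± 36.9 FPKM. Without LINC02861, the 5 transcripts of LINC02449, LINC02395, LINC01840, LINC01513 and LINC02142 each had 2 exons and between 38.4% and 48.7% repeated sequence. LINC02142 also shared 17.2% of its length with RNA of another locus.

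LINC01588 was abundant without repeated sequence. Its gene body lies 3530 bases downstream of VCPKMT, a lysine methyltransferase gene, on the same strand, and extends to chr14:50571820 on that side. Its transcript ENST00000556434 (5 exons, 892 nt) spans chr14:50394289-50428678 only, so it lies much farther from VCPKMT than the gene body does. This transcript had 555, 601, 621 and 691 FPKM. All 4 libraries lay far above 5 FPKM and above the second transcript of the gene, ENST00000556913, which had 70.6 to 105 FPKM and 15.8% repeated sequence. The mean of 617 ± 56.6 FPKM lay 6.68 ± 0.08 above 5 FPKM on the log2(FPKM + 1) scale (limma, adjusted p = 4.88e-12). Repeated sequence was 0% of its 24-mers, and no match of 50 nt at 95% identity to coding or structural RNAs transcribed elsewhere was found. The annotated model carries another version number than the table, so its sequence may differ from the one that was quantified. The next transcripts with under 5% repeated sequence and no shared or coding exon sequence were LINC03031 (206 ± 107 FPKM) and LINC00665 (129 ± 15.4 FPKM).

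LINC03031 split the libraries. It overlaps an unnamed coding gene, ENSG00000285283, on the opposite strand and had 282 and 312 FPKM in replicates 1 and 2 against 123 and 105 in replicates 3 and 4. Its coefficient of variation was 51.9%, while all libraries stayed far above 5 FPKM (limma, adjusted p = 4.87e-08). The annotated sequence holds a run of A that is the most frequent 24-mer of the genome among those counted here, with 367842 copies, although its repeated sequence was 3.25% in all.

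**Figure D1:**
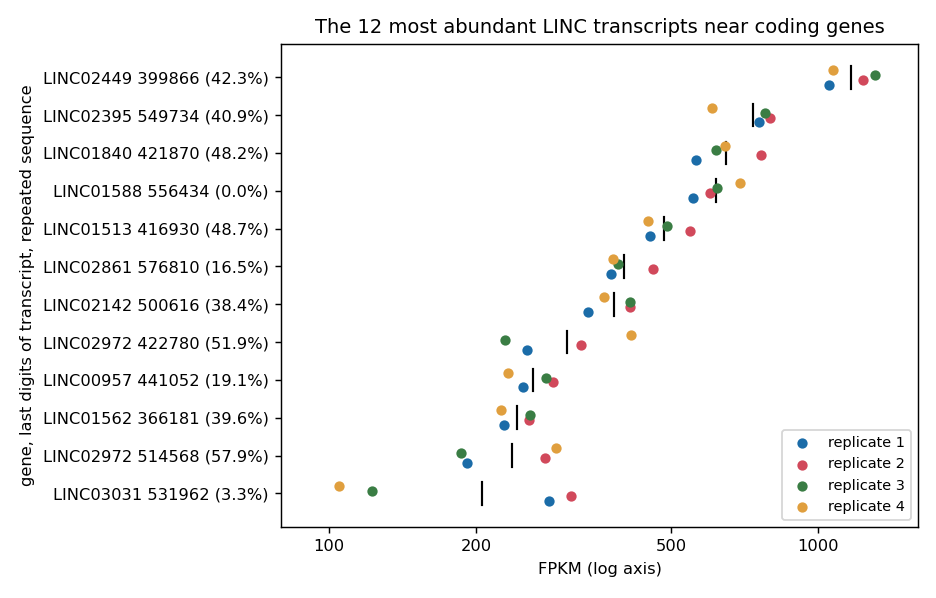
FPKM (log axis) of the 12 transcripts of highest mean in each library (points, replicates 1 to 4) with the mean of the 4 as a black bar; the label gives the percentage of repeated sequence. LINC02449 lies highest at 1163 FPKM, LINC01588 is the transcript with 0% repeated sequence, and LINC03031 spreads from 105 to 312 FPKM.

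Across the 818 transcripts, 219 (26.8%) had a mean above 5 FPKM, with a median of 22.1 FPKM, and 35 exceeded 100 FPKM. At the other end 309 were listed at 0 in all libraries. All 4 libraries lay above 5 FPKM for 186 transcripts and at least 1 library for 244. The share was 20.7% among distant LINC transcripts and 28.4% among all transcripts measured. These shares were not tested against each other, since transcripts are not replicates.

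By limma, 477 of the 818 transcripts had a mean of at least 0.1 FPKM and were tested. Of these, 185 were called above 5 FPKM and 230 below it. The other 62 were called on neither side, and 34 of the 62 averaged more than 5 FPKM. Over all 11435 tested transcripts of the table, 41.9% were called above and 43.3% below. Summed to genes, 145 of 274 tested LINC genes were above 5 FPKM, 100 below and 29 not placed, beside 50.3% above and 38.5% below over all 7124 tested genes. The remaining 137 genes were under the filter, 122 of them listed at 0.

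Around 5 FPKM the libraries straddled the cut-off. LINC01996, downstream of SMTNL2, had 4.90, 5.96, 5.23 and 4.46 FPKM, and limma placed it on neither side (adjusted p = 0.903). A transcript of LINC01473 (ENST00000456653) had 0.84, 8.86, 6.01 and 2.51 FPKM, and one of LINC01376 (ENST00000424895) had 4.75, 4.86, 4.62 and 3.62 FPKM (limma, adjusted p = 0.36 and 0.536). The gene body of LINC01376 reaches chr2:19547828 beside OSR1, whereas this transcript ends at 19226726, much farther from OSR1. The median coefficient of variation was 25.6% for transcripts at 5 to 20 FPKM, 13.3% at 20 to 100 and 11.9% above 100 FPKM.

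The position of the LINC gene body relative to that of the coding neighbour divided the transcripts into 6 classes, described by counts alone. Above 5 FPKM were 22 of 75 transcripts (29.3%) of genes that overlapped the coding gene on the same strand and 57 of 200 (28.5%) of genes that overlapped it on the opposite strand. A transcript of such a gene may lie outside the coding gene, as 87 of the 200 did, of which 26 were above 5 FPKM, against 31 of the 113 that overlapped it themselves. Of divergent transcripts, which start on the neighbour's 5′ side and run away from it, 42 of 137 (30.7%) were above. The share was 23.4% (22 of 94) for convergent ones, whose 3′ end faces that of the neighbour. Of transcripts on the same strand, 54 of 180 downstream of the coding gene but 22 of 132 (16.7%) upstream of it were above 5 FPKM. Upstream ones were also most often listed at 0 (75 of 132), against 52 of 180 downstream.

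Besides those given above, LINC00957 upstream of DBNL, an actin-binding adaptor gene, had 262 ± 25.5 FPKM. LINC01426, which faces RUNX1, a transcription factor gene of blood formation, had 205 ± 25.1 FPKM and LINC01978, facing TBC1D16, 195 ± 22.4 FPKM. On the same strand within the coding gene, LINC00311 in GSE1 had 138 ± 17.0 FPKM and LINC02210 had 101.4 ± 13.6 FPKM. LINC02210 starts 16 bases from the annotated start of a read-through gene with CRHR1, so its coding neighbour includes the LINC gene itself.

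**Figure D2:**
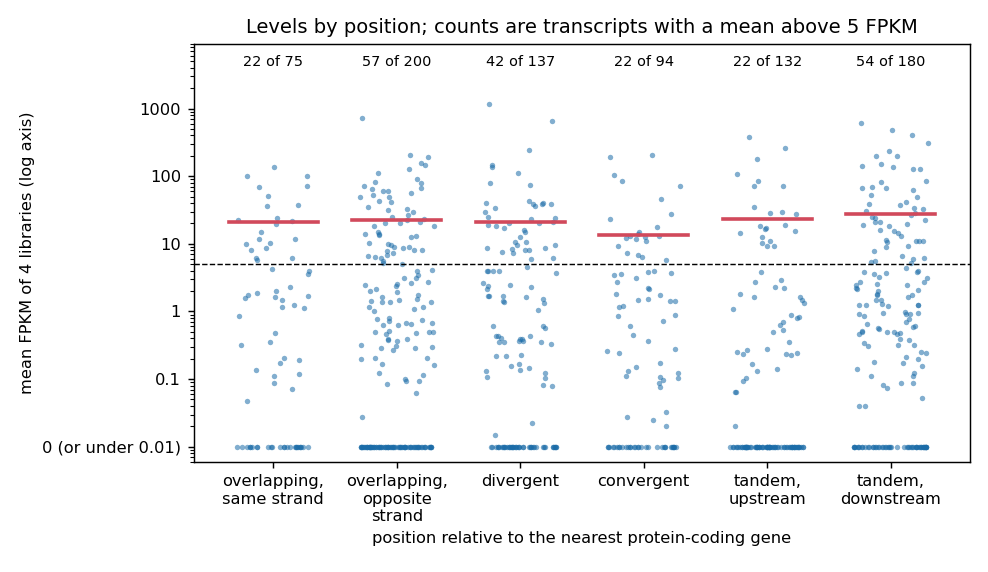
Mean FPKM of the 4 libraries (log axis; values of 0 or under 0.01 are drawn at the bottom) for the 818 transcripts by position relative to the nearest coding gene; the dashed line marks 5 FPKM, the red bar the median of those above it, and the numbers how many were above. Upstream tandem transcripts have 22 of 132 above the line, against 42 of 137 divergent ones.

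Overlap with coding exons was rare. Only 38 transcripts of 13 genes shared a base with an exon of a protein-coding transcript on the same strand, 9 of them above 5 FPKM, and 17 shared bases on the opposite strand, 4 of them above. The largest such overlap on the same strand above 5 FPKM was 416 bases (41.0% of the length) of a transcript of LINC01089, whose gene body overlaps RHOF. That transcript had 13.6, 10.9, 6.93 and 7.86 FPKM. LINC00339 (68.8 ± 5.63 FPKM) shared 108 such bases, and its gene body overlaps an unnamed coding gene, ENSG00000289694. The bases were counted over exons of all coding transcripts, so they were not assigned to these neighbours. How many of these fragments came from the coding RNA was not tested.

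By distance within 10 kb, the share above 5 FPKM lay between 24.2% and 29.4%. It was 28.7% for transcripts of overlapping genes, 29.4% for a gap of up to 1 kb, 25.7% for more than 1 and up to 5 kb and 24.2% for more than 5 and up to 10 kb. The genes just inside the limit were LINC01366 (9907 bases from LCP2, 0.45 ± 0.524 FPKM) and LINC03048 (9993 bases from BAHCC1, 1.06 ± 0.545 FPKM). Just outside it were LINC02417 (10003 bases, listed at 0) and LINC01269 (10068 bases, 35.6 ± 5.14 FPKM). These were chosen for their distance.

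Divergent pairs whose starts lie within 1 kb of each other numbered 49 transcripts of 23 LINC genes, and 15 of the transcripts had a mean above 5 FPKM (30.6%). For pairs farther apart it was 27 of 88 (30.7%). The bases between the starts are shown for 6 pairs with up to 300 bases, LINC00205, LINC01134 and LINC01473 followed by LINC01424, LINC01498 and LINC02608, which were added after their values were seen. Each is in the sense of the LINC gene, on GRCh37, and ends where the LINC gene starts. Capitals mark CCAAT or its reverse complement ATTGG, the motif of the factor NF-Y. The intervals are chr21:46707814-46707949 (plus strand), chr1:3816858-3816910 (plus strand), chr2:187350733-187350979 (minus strand), chr21:46221742-46221797 (plus strand), chr12:108908801-108909053 (minus strand) and chr1:212458473-212458751 (minus strand).
LINC00205 to POFUT2: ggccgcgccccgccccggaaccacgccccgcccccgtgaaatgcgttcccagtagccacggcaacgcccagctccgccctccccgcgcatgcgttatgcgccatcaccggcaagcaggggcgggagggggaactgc
LINC01134 to C1orf174: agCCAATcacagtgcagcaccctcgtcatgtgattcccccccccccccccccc
LINC01473 to ZC3H15: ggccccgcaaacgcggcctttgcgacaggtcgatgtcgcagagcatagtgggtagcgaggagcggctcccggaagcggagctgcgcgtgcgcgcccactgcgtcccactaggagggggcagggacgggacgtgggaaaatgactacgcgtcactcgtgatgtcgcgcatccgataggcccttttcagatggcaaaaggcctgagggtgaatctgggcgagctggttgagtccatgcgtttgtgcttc
LINC01424 to UBE2G2: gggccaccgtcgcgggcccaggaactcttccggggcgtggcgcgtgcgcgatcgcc
LINC01498 to FICD: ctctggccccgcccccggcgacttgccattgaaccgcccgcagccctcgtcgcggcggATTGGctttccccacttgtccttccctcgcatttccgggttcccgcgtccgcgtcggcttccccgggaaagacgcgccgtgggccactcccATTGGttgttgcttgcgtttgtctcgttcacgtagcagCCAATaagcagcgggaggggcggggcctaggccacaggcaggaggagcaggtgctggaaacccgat
LINC02608 to PPP2R5A: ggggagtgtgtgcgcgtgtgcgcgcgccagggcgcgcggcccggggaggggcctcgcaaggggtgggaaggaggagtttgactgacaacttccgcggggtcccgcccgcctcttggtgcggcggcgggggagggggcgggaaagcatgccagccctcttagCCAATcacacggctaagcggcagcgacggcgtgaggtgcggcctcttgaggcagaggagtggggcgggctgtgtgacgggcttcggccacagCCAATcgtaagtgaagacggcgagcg
Of these 6, LINC01134, LINC01498 and LINC02608 hold the motif, with LINC levels of 67.0, 0.155 and 2.01 FPKM as genes. Since some of the pairs were added after their values were seen, this count is not the share of such pairs. For comparison, CCAAT on either strand was in 35.6% of the promoter windows of the 818 transcripts. The CG dinucleotide occurs 17 times in the 136 bases of the LINC00205 pair, 25 times in the 247 bases of the LINC01473 pair and once in the 53 bases of the LINC01134 pair.

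LINC00205, studied in liver cancer, starts 137 bases from POFUT2, a protein O-fucosyltransferase gene. Its transcript ENST00000400362 (7553 nt) had 93.4, 78.8, 78.9 and 67.6 FPKM with 1.29% repeated sequence, and ENST00000433465 had 45.6, 32.8, 39.5 and 35.7 FPKM. Both were above 5 FPKM in every library (limma, adjusted p = 3.07e-10 and 1.04e-08). LINC01134, 54 bases from C1orf174, had 40.3 ± 4.58 and 24.3 ± 2.15 FPKM in 2 transcripts. LINC01301, 121 bases from RAB2A, a GTPase gene of transport between the endoplasmic reticulum and the Golgi, had 38.8 ± 4.47 and 29.2 ± 5.58 FPKM. LINC02202, 567 bases from EBF1, a B-cell transcription factor gene, was the highest of the close pairs with 146 ± 18.5 and 137 ± 10.0 FPKM and 15.7% and 15.9% repeated sequence.

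Other close pairs had lower LINC levels. Summed over transcripts, LINC01473 beside ZC3H15 had 9.16, 18.96, 18.3 and 19.4 FPKM, with replicate 1 lowest, and LINC01424 beside UBE2G2, a ubiquitin-conjugating enzyme gene, 14.9 FPKM. LINC01498 beside FICD, which modifies the chaperone BiP, had 0.155 FPKM and LINC02608 beside PPP2R5A, a regulatory subunit gene of protein phosphatase 2A, 2.01 FPKM.

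The promoter window (250 bases before to 50 after each annotated start) was taken from GRCh37 for all matched transcripts. A ratio of observed to expected CG of 0.6 or more is a usual mark of CpG islands. It was found in 55.1% of the 49 windows of transcripts of the close divergent genes. Of these 49 transcripts, 25 start within 1 kb of the start of their gene, and 24 of the 25 (96%) had such a window. The others start farther inside the gene. The share was 18.2% for the 88 divergent transcripts farther apart and 24.1% for all 818. It was 12.5% for distant LINC transcripts and 25.2% for all matched transcripts. Of the 197 transcripts with such a window 71 were above 5 FPKM, against 148 of the 621 without (23.8%). Across the 818 transcripts Spearman's rank correlation of the ratio and the mean FPKM was 0.14, a description over transcripts of the same libraries that share genes.

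**Figure D3:**
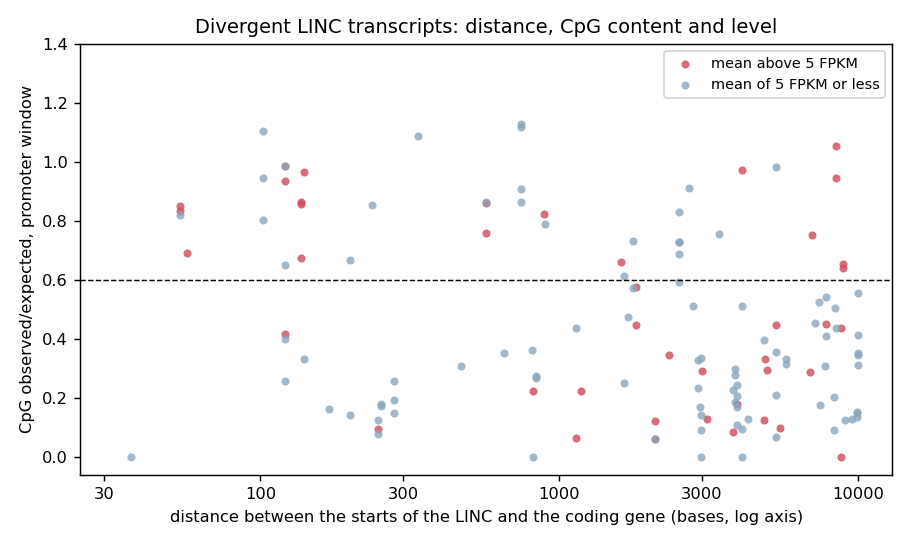
Observed/expected CG of the promoter window against the distance between the starts of the LINC gene and its coding neighbour (bases, log axis) for divergent transcripts; red points have a mean above 5 FPKM. For gene pairs with starts within 1 kb, 55.1% of windows have a ratio of 0.6 (dashed line) or more, against 18.2% farther apart. Each window lies at the transcript's own start, which was within 1 kb of the gene start for 25 of the 49 transcripts of close pairs. Red points occur in both ranges.

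Short motifs were searched on both strands of the same windows. TATAAA, the TATA box, was in 13.3% of the 818 windows, 19.6% of distant LINC windows and 15.96% of 16667 lncRNA windows. CCAAT was in 35.6%, 37.8% and 35.1%, and CCGGAAGT, the motif of ETS factors, in 2.57%, 0.55% and 1.88%. TGACGTCA (the cAMP response element) and the palindromic NRF1 motif were each in 3 of the 818 windows, 0.367%, against 0.786% and 0.393% of distant LINC and 1.12% and 0.546% of lncRNA windows. The palindromic motif of the hepatocyte factor HNF1 was in 0 of the 818 and in 3 of the 16667 windows. A match is a description of letters, not of binding.

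Repeated sequence went with the level. Among transcripts with under 5% repeated sequence 70 of 604 (11.6%) were above 5 FPKM, among those with 5 to 25% it was 119 of 179 (66.5%) and with 25% or more 30 of 35 (85.7%). The same bins of distant LINC transcripts gave 7.91%, 58.7% and 78.2%. Read by level, 0.647% of the 309 transcripts listed at 0 but 45.7% of the 35 above 100 FPKM had 25% or more repeated sequence. Spearman's rank correlation of repeated sequence and mean FPKM was 0.51 over the 219 transcripts above 5 FPKM, again a description over transcripts that share genes, libraries and elements.

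Reads from copies of a repeated element elsewhere in the genome match the same bases, and the part of such reads in these levels was not tested.

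**Figure D4:**
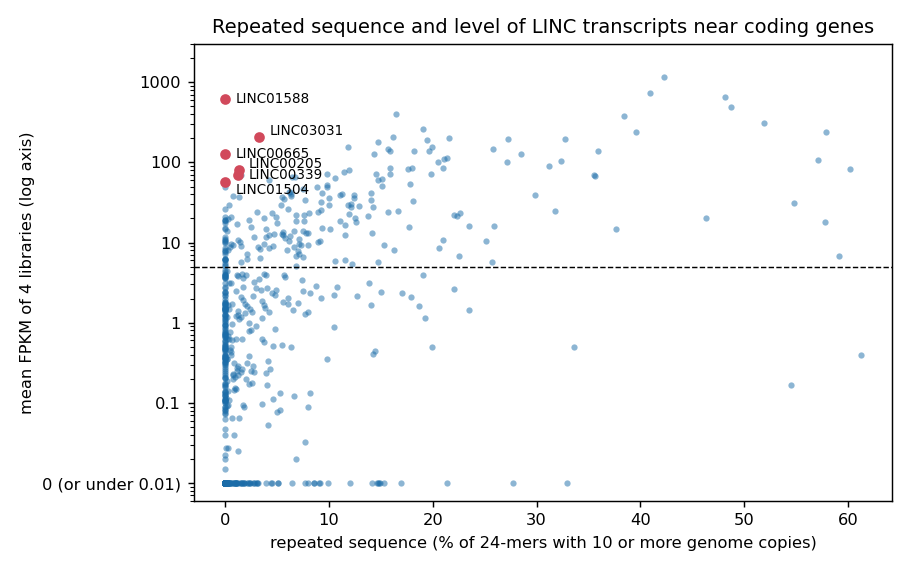
Mean FPKM of the 4 libraries (log axis; values of 0 or under 0.01 are drawn at the bottom) against repeated sequence for the 818 transcripts, with 5 FPKM dashed. Transcripts with 25% or more repeated sequence lie mostly above the line (30 of 35), while LINC01588 at 617 FPKM leads those marked in red, which have under 5%.

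Isoforms of a gene could exchange FPKM between libraries while their sum stayed level. In LINC02021, whose gene body overlaps ALG1L2 on the same strand, ENST00000504808 had 28.5, 35.4, 0 and 25.6 FPKM, while ENST00000514145, named for this contrast after its values were seen, had 7.79, 0, 28.6 and 5.00. Replicate 3 was thus listed at 0 in the first and highest in the second. Summed over 3 transcripts the gene had 37.7, 37.2, 28.6 and 31.9 FPKM, and its coefficient of variation was 12.9% against 69.1% for ENST00000504808. The gene was above 5 FPKM (limma, adjusted p = 1.68e-11), whereas ENST00000504808 was called on neither side (adjusted p = 0.181) and passed only without replicate 3 (2.35 above 5 FPKM on the log2 scale, adjusted p = 2.03e-07). Reads that match several isoforms are divided by estimation in RSEM, and the part of that step here was not tested.

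LINC01504, whose gene body overlaps ZFAND5 on the opposite strand, varied also as a gene. ENST00000451152 (0% repeated sequence) had 82.2, 31.0, 72.6 and 39.2 FPKM, and the gene 111, 54.5, 105 and 56.0 FPKM. Replicates 1 and 3 lay above replicates 2 and 4 without overlap. The titles of replicates 1 and 3 carry the letter L and those of replicates 2 and 4 the letter H, which the series' design text gives as internal names rather than study variables. LINC02972, beside RIMKLB, had 517, 703, 482 and 797 FPKM as a gene, with replicates 2 and 4 above replicates 1 and 3, and 51.9% to 60.2% repeated sequence in its 3 transcripts. By title letter, in a comparison chosen after seeing the data, ENST00000451152 averaged 77.4 FPKM in the L and 35.1 in the H libraries (limma, unadjusted p = 0.00193, adjusted p = 0.67). Limma called 0 of the 477 tested LINC transcripts between the letters, beside 0.0175% of all 11435, and 29 of the 477 had an unadjusted p under 0.05 (6.08%, against 4.80% of all).

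Among 93 genes with several transcripts and a mean above 5 FPKM, the median coefficient of variation was 14.3% for the gene and 17.0% for its highest transcript, and the gene's was the lower in 51.

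**Figure D5:**
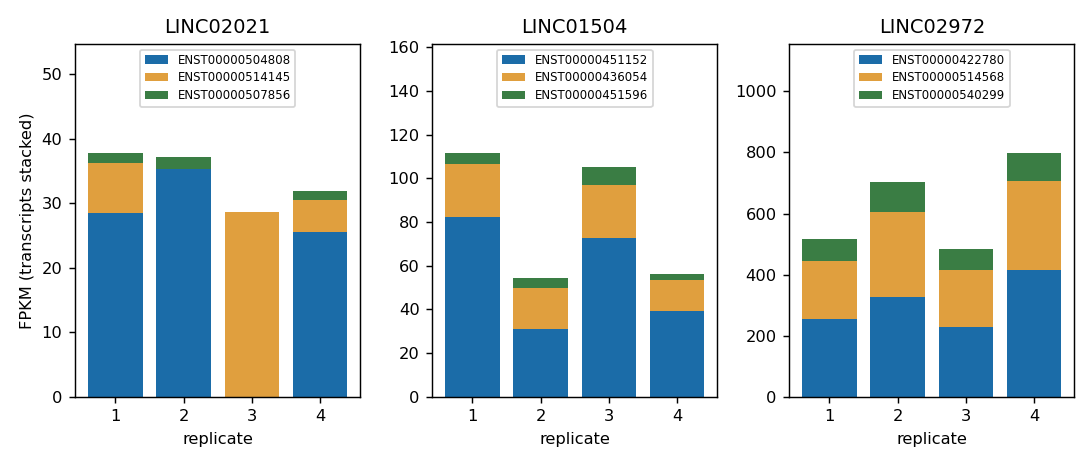
FPKM per library (replicates 1 to 4) of LINC02021, LINC01504 and LINC02972, with their 3 transcripts each stacked from 0. In LINC02021 replicate 3 consists of ENST00000514145 alone at 28.6 FPKM, LINC01504 is higher in replicates 1 and 3, and LINC02972 in replicates 2 and 4.

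The steadiest transcripts above 20 FPKM were LINC00566 with 21.5, 21.6, 21.1 and 20.7 FPKM, LINC02878 inside ZNF707 with 37.6, 37.8, 35.9 and 36.1 FPKM, and LINC01772 downstream of NECAP2 with 28.5, 29.5, 28.5 and 27.1 FPKM. Their coefficients of variation were 1.99%, 2.70% and 3.58%, and they were picked as the lowest of 118. These used FPKM as deposited and were not recomputed after scaling of the libraries, so the ranking may differ on scaled values. Of these 118 transcripts above 20 FPKM, 67 were highest in replicate 2 and 62 lowest in replicate 4. Over all transcripts of the table above 20 FPKM the shares were 55.5% and 43.7%. After median-of-ratios scaling it was 24 highest in replicate 2 and 25 lowest in replicate 4.

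LINC genes that have been studied in cancer formed a list of 39, drawn from general knowledge, of which 11 belonged here. All 11 were called above 5 FPKM as genes (limma over all genes), against 145 of the 411, of which 274 were tested. Over all tested genes 50.3% were above. The median of the 11 was 126 FPKM against 1.36 for all 411. The list was chosen with earlier results of these data known, so these counts may not be independent of the levels. The 11 genes also held 56 of the 818 transcripts, and gene values are sums over transcripts. By transcript, limma called 23 of their 45 tested transcripts above and 14 below. Over all tested transcripts it was 41.9% above and 43.3% below. LINC00511, downstream of the zinc transporter gene SLC39A11, had 346, 345, 360.1 and 336 FPKM over 17 transcripts, of which ENST00000457958 (153 ± 11.5 FPKM) and ENST00000453722 (140.3 ± 12.4 FPKM) held most. LINC00667, whose gene body overlaps ZBTB14 on the opposite strand, had 231 ± 6.82 FPKM and LINC00467, beside TRAF5, a signalling adaptor gene, 201 ± 13.3 FPKM. LINC00665 beside ZFP14, a zinc finger gene, followed with 156 ± 16.1 FPKM.

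Of the same list LINC00339 had 126 ± 11.7, LINC00205 126 ± 17.5 and LINC01134 67.0 ± 6.01 FPKM. LINC00857, which starts 1800 bases from ANXA11, had 59.1, 38.4, 59.2 and 41.8 FPKM, and LINC00668 30.8 ± 7.31 FPKM. LINC00324 (10.9 ± 0.858 FPKM) and LINC01018 were lowest. LINC01018, a liver-expressed lncRNA whose gene body overlaps NSUN2 on the opposite strand, had 7.37, 8.71, 7.10 and 5.98 FPKM, all above 5 FPKM but close to it (limma over transcripts, adjusted p = 0.0404). The call was lost without replicate 1, 2 or 3 (limma, adjusted p = 0.0989, 0.117 and 0.0939).

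Developmental transcription factor genes, taken only by symbol prefixes such as HOX, FOX, RUNX or HNF, had 23 LINC neighbours. Of their 54 transcripts 5 (9.26%) had a mean above 5 FPKM, against 26.8% of the 818. As genes 4 were called above, 3 below and 1 on neither side by limma, and 15 were not tested. Over all tested genes 50.3% were above and 38.5% below, so the calls of the few tested genes lay near these shares. Of the 23 genes 13 were listed at 0, against 122 of the 411. The highest was LINC01426 at RUNX1 (276 ± 30.8 FPKM as a gene), and LINC00466, which starts 5293 bases from FOXD3, had 21.1, 22.6, 23.5 and 17.7 FPKM. Those listed at 0 included, chosen after their values were seen, LINC01620 beside the hepatocyte factor gene HNF4A and LINC01436, which starts 470 bases from the outermost annotated start of RUNX1. The annotated RUNX1 body thus had a LINC neighbour at 276 FPKM where the genes converge and another listed at 0 at its other end. That annotated start lies 1258912 bases from the start of LINC01426, and whether RUNX1 is read from there in HUH7 cells was not tested.

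Solute carrier genes had 8 LINC neighbours, of which 7 were called above 5 FPKM by limma and 1 was listed at 0, with a median of 20.4 FPKM. Among the 411 LINC genes 145 were above, with a median of 1.36 FPKM, and 50.3% of all tested genes were above. By transcript, 13 of the 26 of these neighbours had a mean above 5 FPKM, and limma called 10 above and 9 below. LINC00511 alone held 17 of the 26 transcripts. LINC00511 led, and LINC02245, whose gene body overlaps the neutral amino acid transporter gene SLC1A4 on the opposite strand, had 60.9, 68.6, 70.3 and 59.3 FPKM. Of 5 neighbours of ZNF genes, which encode zinc finger proteins, 3 were above and 1 below: LINC02878 (36.9 ± 0.997 FPKM), LINC00960 at ZNF717 (20.6 ± 3.19 as a gene) and LINC01518 at ZNF33B (18.4 ± 3.22) were the 3 above. With 23, 8 and 5 genes, the lists are described by these counts and were not compared by a test. They too were chosen with earlier results of these data known.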

How the data were processed

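RNA of HUH7 cells was measured in 4 libraries. The authors deposited FPKM values of 19835 non-coding transcripts. Ensembl 68 non-coding transcripts on hg19 (GRCh37) served as the reference for alignment with Bowtie 1.01 and quantification with RSEM 1.2.3, per the methods and the submitters' processing notes. Coding transcripts were not in that reference, so reads of coding RNA or of repeats elsewhere could be placed on a LINC transcript. The strand setting of the alignment is not given in the sources used here. Therefore a LINC gene and an overlapping gene on the opposite strand cannot be told apart with certainty.

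Identifiers without version were matched to GENCODE 44 mapped to GRCh37 (18373 matched). Of the 818 transcripts, 439 had the same version, and the others may have a changed model. The nearest protein-coding gene body set the neighbour, and for 2 LINC genes annotated as coding the own body was not counted. The members and lists were chosen with earlier results of these data known. The named transcripts were, by a rule, the 12 of highest mean, the 2 highest per position class, 8 close divergent ones, 4 nearest 5 FPKM, those of the 3 highest genes with 3 or more transcripts, the 3 most and 3 least variable above 20 FPKM, members of the cancer list, the 3 highest per neighbour list, the one with most coding exon bases and the 3 highest without repeated or shared sequence.

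Each transcript with a mean of at least 0.1 FPKM was tested in limma 3.58.1 as log2(FPKM + 1) against log2(5 + 1) (R 4.3.3, moderated one-sample test, mean-variance trend, two-sided, Benjamini-Hochberg over all 11435 transcripts, threshold 0.05), and sums per gene likewise over 7124 genes. The test was checked on simulated data. Exon overlap was found with bedtools 2.31.1 and shared sequence with blastn 2.17.0. Repeated sequence used all 24-mers of the 818 transcripts and 1 in 16 for others. Depth is an estimate: 69.8% to 70.3% of low FPKM values times the length minus 80 nt lay within 0.05 of a whole fragment for the fitted depths, so no count test was run. Alternatives were another pseudocount, filter, threshold, scaling, trend, distance limit and sum per gene, subsets of transcripts, and leaving out each library. Some sequences are not reported here.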

Additional observations from a re-analysis of the deposited data

Results flagged for a closer look

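Of 58 named transcripts, 5 had a library far from the other 3, measured by Dixon's ratio, the gap to the nearest library over the whole range of the 4, at its 95% limit. Chance flags about 1 in 20 groups. In LINC02861 ENST00000576810 (0.848) replicate 2 was highest with 460.1 FPKM against 377 to 390 in the others, and in LINC00667 ENST00000580684 (0.926) it was highest with 70.8 FPKM against 64.8 to 65.2. Replicate 2 was also highest in LINC02449 ENST00000304751 (0.90), with 4.02 FPKM against 1.32 to 1.59. All ratios here used FPKM as deposited, where replicate 2 was highest in 55.5% of all transcripts of the table above 20 FPKM. After median-of-ratios scaling that share was 22.5%. Dixon's ratios were not recomputed on scaled values, so these flags may reflect the scale of the library. LINC02449 ENST00000536034 (1) and LINC01588 ENST00000556019 (1) were listed at 0 in 3 libraries and at 0.53 and 0.50 FPKM in replicate 4. With 3 libraries at 0 the ratio is 1 for any other value, so these flags say little. The estimate for ENST00000536034 was 0.249 fragments per library.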

How the results depend on the processing

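No paired analysis was possible because the libraries formed 1 group. Leaving out each replicate gave 181 to 185 transcripts above and 203 to 224 below 5 FPKM (185 and 230 with all), 140 to 145 and 87 to 102 genes (145 and 100 with all), and a share above 5 FPKM of 26.3% to 26.9%. With a limit of 1 kb, which holds fewer transcripts, it was 87 and 102 transcripts and 67 and 37 genes, and a share of 28.9%. Against 1 FPKM, 258 transcripts and 184 genes lay above, and 86 transcripts and 36 genes below. Against 10 FPKM it was 143 transcripts and 123 genes above, and 278 and 129 below. The share was 24.1% with under 25% repeated sequence and 29.2% for models of the same version, against 26.8%. LINC01018 lost its call without replicate 1, 2 or 3 (0.45, 0.38 and 0.46, limma, adjusted p = 0.0989, 0.117 and 0.0939), and LINC02021 ENST00000504808 gained one without replicate 3 (2.35, adjusted p = 2.03e-07). The sign turned, without a call, for LINC01996 without replicate 2 (-0.035 to 0.081 over the replicates left out), LINC01504 ENST00000451596 without replicate 4 (-0.32 to 0.18) and LINC01473 ENST00000456653 without replicate 1 (-0.75 to 0.056). The cause was not tested. The other 423 values of named transcripts kept their direction and side of the threshold. Estimated depth limits transcripts at 5 to 20 FPKM, with a median of 33.9 fragments per library.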

Other observations

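Transcripts annotated with 1 exon were few, 18 in 17 genes, and 13 of them had a mean above 5 FPKM (72.2%) with none above 100 FPKM. With 2 exons it was 76 of 290 (26.2%), of which 21 exceeded 100 FPKM, and with 3 or more 130 of 510 (25.5%), of which 14 did. The single-exon transcripts above 5 FPKM had a median of 4.203% repeated sequence. Among transcripts with under 5% repeated sequence, a CpG-rich promoter window went with 22 of 132 above 5 FPKM (16.7%) and other windows with 48 of 472 (10.2%), which is a description without a test.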
